A study of Mus musculus with 18 samples.

Results

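Glucocorticoid-responsive genes were examined in RNA sequencing libraries of mouse dorsal root ganglia, the clusters of sensory neurons and their supporting cells that lie beside the spinal cord. The set holds 10 of the 15730 genes in the count table: Fkbp5, Tsc22d3, Sgk1, Zbtb16, Nr3c1, Klf9, Ddit4, Pdk4, Mt1 and Mt2. They were chosen by symbol, with earlier results of these data known, as the receptor itself and genes widely used as readouts of its activity. Shares of members set beside shares of all genes are therefore not an independent test. All 10 symbols were found in the table and kept by the filter on low counts. The 18 samples fell into 6 groups of 3, each sample a pool of sciatic ganglia from 2 C57BL/6 mice aged 6 to 8 weeks, taken 24 h after surgery. In the LAM group the mice had a laminectomy, the opening of the spine that gives access to the cord. In the DCA group the dorsal columns of the spinal cord were also injured, which cuts the central branch of the sensory axons. In the Sham_Saline and Sham_H2O2 groups the operation was a sham, with saline or with 13 mM hydrogen peroxide. In the SNA_Saline and SNA_NAC groups the sciatic nerve was injured, which cuts the peripheral branch, with saline or with 30 mM of the antioxidant N-acetyl-cysteine. All mice had been operated on, so no group gives the level in an unoperated animal.

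Glucocorticoids, corticosterone in the mouse, rise in the blood with stress, surgery and the daily cycle. They bind the glucocorticoid receptor, encoded by Nr3c1, which is held by heat shock protein chaperones in the cytoplasm until it binds hormone and then enters the nucleus and acts on genes through short inverted repeats in DNA. Fkbp5 encodes a co-chaperone that lowers the receptor's affinity for hormone, and it is induced by that receptor, which makes it part of a negative feedback loop. The metallothionein genes Mt1 and Mt2 respond to zinc and other metals through metal response elements as well as to glucocorticoids, so their level is not a readout of the hormone alone.

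Stretches upstream of 3 members are shown because they carry the letters by which these genes are usually classed as hormone or metal responsive. The sequences came from RefSeq (GRCm38.p6), from whose table of promoters 15 windows of 8 of the 10 members were used, out of 32851 windows. Each ran from 250 bases before a start site. Zbtb16 had no entry, and Nr3c1 was left out of the windows of members. The capitals mark a match to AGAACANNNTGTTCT, the inverted repeat bound by the receptor, in Sgk1, and a match to a metal element core, TGCGCNC or TGCACNC, in Mt1 and Mt2. Each was searched on both strands.
Sgk1, chr10:21993671-21993745, plus strand, no annotated exon: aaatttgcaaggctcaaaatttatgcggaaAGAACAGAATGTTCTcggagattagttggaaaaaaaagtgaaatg
Mt1, chr8:94178939-94179078, plus strand, no annotated exon: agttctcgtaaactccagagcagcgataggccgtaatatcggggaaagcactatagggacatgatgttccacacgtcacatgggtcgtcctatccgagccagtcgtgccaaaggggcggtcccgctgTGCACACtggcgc
Mt2, chr8:94172468-94172607, plus strand, within an exon of the antisense gene Gm45774: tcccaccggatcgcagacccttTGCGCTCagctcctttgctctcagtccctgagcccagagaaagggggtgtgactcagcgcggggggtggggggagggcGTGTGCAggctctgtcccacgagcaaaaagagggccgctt

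The inverted repeat was found in 3 of the 32851 windows (0.00913%), and 1 of these was a window of Sgk1. There it began 189 bases before the start site of that window. Sgk1 had several windows, at different start sites, and no other of them held the repeat. The single unit, AGAACA, was far more common, in 16.1% of all windows and in 4 of the 15 windows of members. TGCGCNC was present in 12.5% of all windows and in 2 of the 15 windows of members (Mt2 and Ddit4, in the latter 184 bases before the start site). TGCACNC was present in 10.4% of all windows and in 2 of the 15 (Mt1 and Mt2). Either core was found in 21.4% of all windows, so a match to a core is frequent in windows of this length. In Mt2 the second run of capitals, GTGTGCA, is TGCACNC read on the opposite strand. These matches describe letters in a window, and no binding was measured here.

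The libraries held 6472476 to 42435331 counts, and the shallowest were Sham_H2O2 replicates 3 and 1. Replicates of a group are separate pools, each on its own sequencing lane. The tests set differences between groups against the spread between these pools. The samples also differed in how strongly the level of a gene followed its GC share: this slope, in log2 units per SD of GC share, ran from -0.23 in Sham_H2O2 replicate 3 to 0.42 in Sham_Saline replicate 2. Neuronal, satellite glial and Schwann cell markers were all measured, and the summed neuronal markers stood between 7562 and 12644 CPM in every sample. Markers of red cells (164 to 840 CPM) and of skeletal muscle (6.85 to 1304 CPM) varied most, and the highest muscle sum was in Sham_Saline replicate 2. CPM, the unit of the levels given here, is the count scaled to the depth of the library after TMM normalization (the trimmed mean of M-values). In pooled tissue, fewer cells of a type and less RNA per cell cannot be told apart.

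Most members had their lowest level in the ganglia of the Sham_H2O2 mice, and the group in which they were highest differed between them. The group mean was lowest in Sham_H2O2 for 9 of the 10 members, the exception being Nr3c1, which was lowest in DCA, whereas Sham_H2O2 was the lowest group for 7.73% of all genes. The mean was highest in DCA for 5 members (Fkbp5, Zbtb16, Pdk4, Mt1 and Mt2), against 8.15% of all genes, and highest in LAM for Tsc22d3 and Sgk1 (19.2% of all genes). Nr3c1 and Klf9 were highest in SNA_NAC (21.4%), and Ddit4 in Sham_Saline (31.8%). In edgeR's quasi-likelihood test of any difference among the 6 groups, Fkbp5 (adjusted p = 0.0394) and Pdk4 (adjusted p = 0.0362) passed the threshold of 0.05 after Benjamini-Hochberg adjustment over all genes. That was 2 of 10 members, against 3.94% of all genes. A further 6 members had an unadjusted p under 0.05, namely Tsc22d3, Sgk1, Zbtb16, Klf9, Mt1 and Mt2, which makes 8 of 10 against 17.8% of all genes. Nr3c1 and Ddit4 had adjusted p of 0.702 and 0.744. DESeq2 called 5 members in its 6-group test, against 8.8% of all genes.

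Neighbouring groups in the order of means mostly overlapped: of the 50 steps between neighbours over the 10 members, 3 had no overlap, all between Sham_H2O2 and SNA_NAC (Sgk1, Pdk4 and Mt2). Such steps were not counted over all genes, so whether this is unusual is not known.

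The calls of Fkbp5 and Pdk4 among the 6 groups were close to the threshold. With the lane as a block, the adjusted p of Fkbp5 was 0.0624 and that of Pdk4 0.0466. Fkbp5 lost its call when any of 13 of the 18 samples was left out (adjusted p up to 0.101), and kept it without any of the Sham_Saline samples, SNA_Saline replicate 3 or LAM replicate 1. Pdk4 lost its call without any of 11 samples (up to 0.0897), and kept it without any Sham_Saline sample, SNA_Saline replicate 3, LAM replicate 3, DCA replicate 3 or Sham_H2O2 replicate 3.

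**Figure D1:**
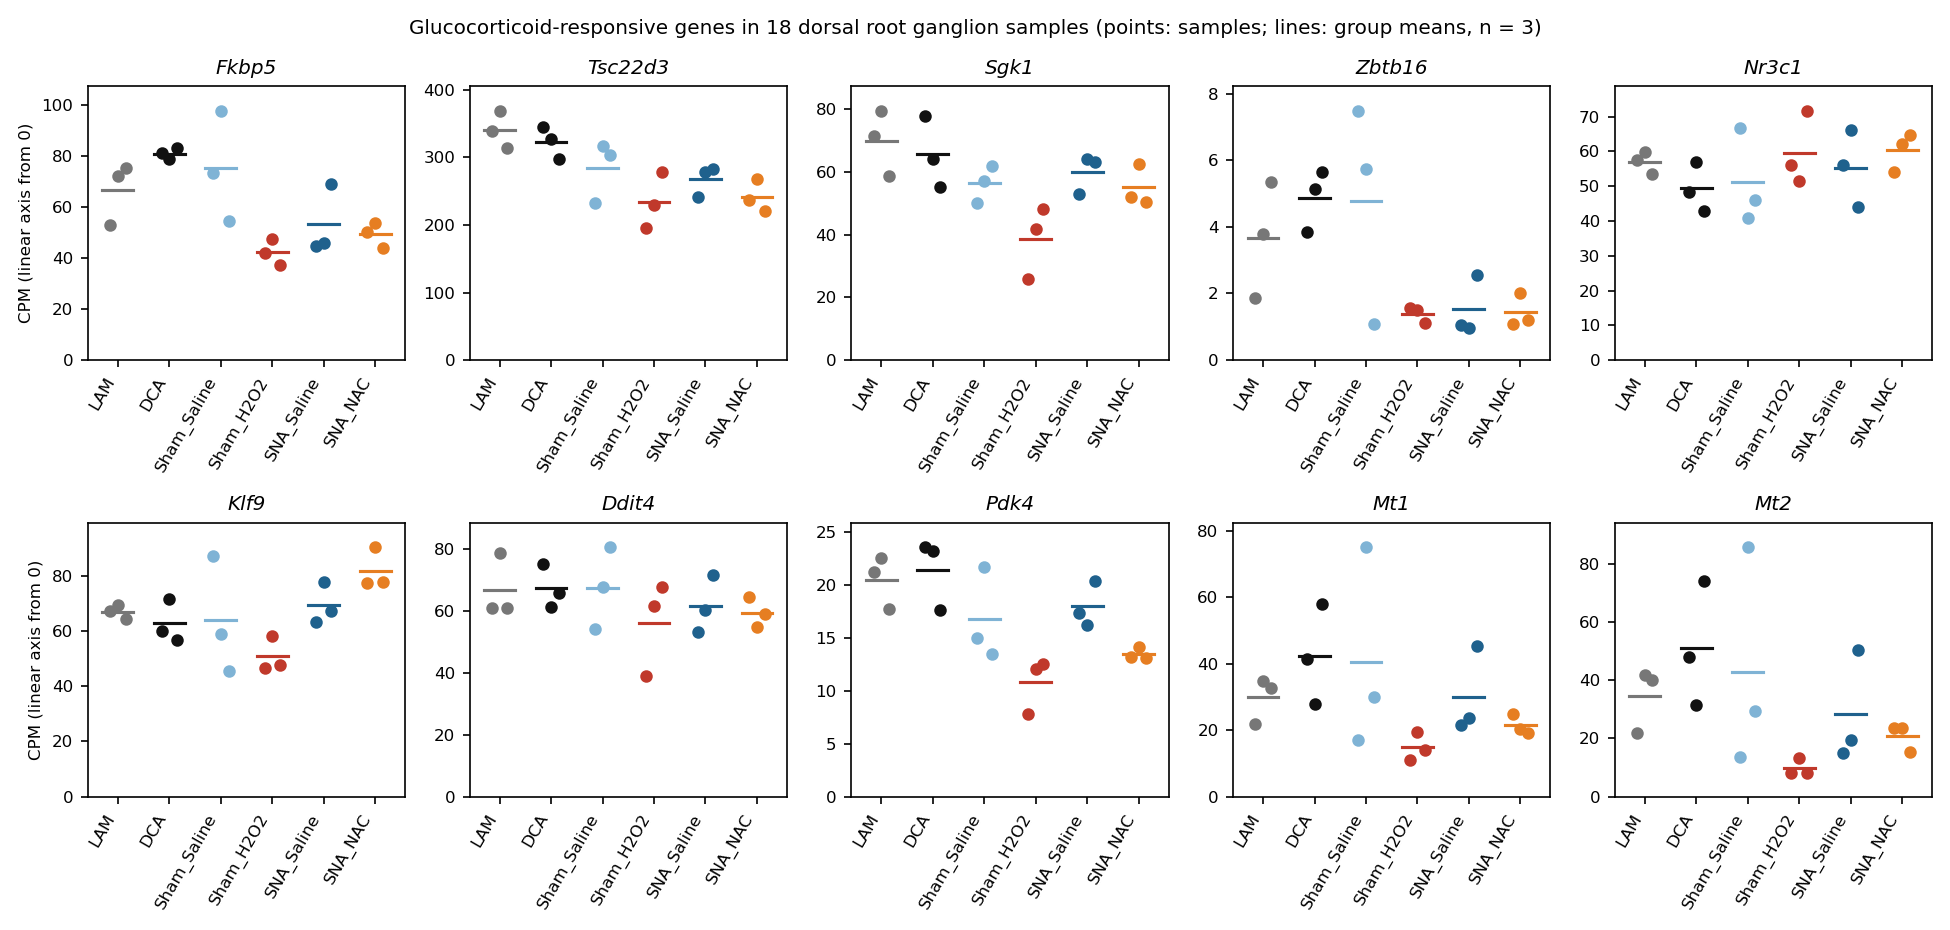
CPM of the 10 members in every sample of the 6 groups, on linear axes that start at 0 and differ between panels; points are samples and lines are group means (n = 3). Sham_H2O2 has the lowest mean in every panel but that of Nr3c1, and the 3 Sham_Saline samples are widely spread for Fkbp5, Zbtb16, Mt1 and Mt2.

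Nr3c1, the receptor, had group means between 49.5 CPM in DCA and 60.3 CPM in SNA_NAC. Its 3 samples were at 57.6, 59.7 and 53.4 CPM in LAM, 48.5, 57.0 and 42.9 in DCA, 66.8, 40.7 and 46.1 in Sham_Saline, 56.0, 51.4 and 71.7 in Sham_H2O2, 56.1, 66.0 and 43.9 in SNA_Saline, and 54.1, 62.2 and 64.7 in SNA_NAC. The highest group mean was 1.22-fold the lowest, and every pair of neighbours in the order of group means overlapped. None of the 15 pairs of groups gave an unadjusted p under 0.05 for this gene. The rest of the receptor machinery (the mineralocorticoid receptor Nr3c2, chaperones such as Hsp90ab1 and Ptges3, the cortisone reductase Hsd11b1, and coregulators such as Ncoa1 and Ncor1) was measured for 11 of 12 genes, and none passed in edgeR in any of the planned comparisons or in the 6-group test. Of these 11, 4 had an unadjusted p under 0.05 after sciatic injury (1 higher and 3 lower, against 22.5% of all genes in either direction), 2 in Sham_H2O2 against Sham_Saline (both lower, 5.85% of all genes), 0 after dorsal column injury (5.04%) and 0 with N-acetyl-cysteine after sciatic injury (2%). It was 1 in SNA_NAC against Sham_Saline (lower, 27.6%), 2 higher and 3 lower in Sham_Saline against LAM (30.3%), and 3 higher and 3 lower in the difference between the sciatic and the dorsal column responses (31.4%).

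Fkbp5, the feedback co-chaperone, lies on chromosome 17 (chr17:28399094-28517527, minus strand, mm10). It was at 52.8, 72.0 and 75.3 CPM in LAM, 81.1, 78.8 and 83.2 in DCA, 73.4, 97.7 and 54.4 in Sham_Saline, 41.9, 47.6 and 37.2 in Sham_H2O2, 44.7, 45.9 and 68.9 in SNA_Saline, and 50.1, 53.7 and 44.0 in SNA_NAC. All 3 Sham_H2O2 samples lay below all LAM, DCA and Sham_Saline samples. From highest to lowest the means (n = 3, SD) were 81.0 ± 2.18 in DCA, 75.2 ± 21.7 in Sham_Saline, 66.7 ± 12.2 in LAM, 53.2 ± 13.7 in SNA_Saline, 49.3 ± 4.94 in SNA_NAC and 42.2 ± 5.23 in Sham_H2O2. The highest mean was 1.92-fold the lowest.

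Zbtb16, which encodes the transcription factor PLZF and is strongly induced by glucocorticoids in many tissues, was the least abundant member. Its reads numbered 7 to 159 per library, so single samples carry large counting error. It was at 1.9, 3.8 and 5.3 CPM in LAM, 3.8, 5.1 and 5.6 in DCA, 7.5, 5.7 and 1.1 in Sham_Saline, 1.6, 1.5 and 1.1 in Sham_H2O2, 1.1, 1.0 and 2.6 in SNA_Saline, and 1.1, 2.0 and 1.2 in SNA_NAC. The Sham_Saline samples thus covered nearly the whole range of the series, with replicate 3 as low as the Sham_H2O2 samples. Its within-group SD was larger than that of 98.5% of genes. Samples low in Fkbp5 were also low in Zbtb16: of all genes compared, Fkbp5 was the third closest to Zbtb16 over the 18 samples, after Plin4 and Hif3a, which were named after their values were seen.

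**Figure D2:**
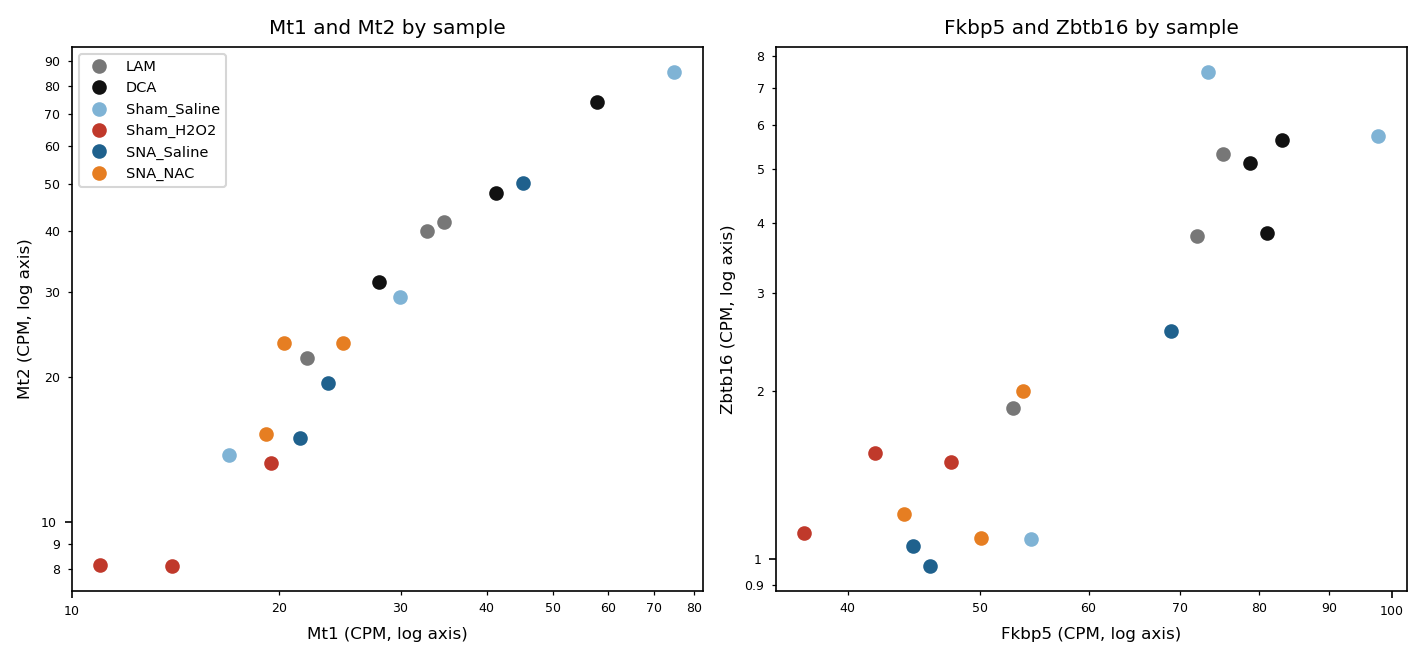
Mt2 against Mt1 (left) and Zbtb16 against Fkbp5 (right) in each of the 18 samples, in CPM on log axes, coloured by group. Samples low in Mt1 are low in Mt2, from the Sham_H2O2 samples up to Sham_Saline replicate 2, and Zbtb16 is at 3.8 CPM or more only in samples with at least 72.0 CPM of Fkbp5.

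Tsc22d3 and Sgk1 are classical targets: Tsc22d3 encodes GILZ, which carries part of the anti-inflammatory action of the hormone, and Sgk1 a kinase that regulates ion channels and transporters. Tsc22d3 was at 339.6, 369.0 and 314.0 CPM in LAM, 345.6, 327.7 and 297.7 in DCA, 232.4, 316.8 and 303.3 in Sham_Saline, 196.1, 229.6 and 278.6 in Sham_H2O2, 241.4, 278.3 and 283.2 in SNA_Saline, and 236.9, 268.1 and 221.1 in SNA_NAC. Every LAM and DCA sample was above every Sham_H2O2, SNA_Saline and SNA_NAC sample. Sgk1 was at 71.5, 79.5 and 58.9 CPM in LAM, 78.0, 64.1 and 55.2 in DCA, 50.2, 57.1 and 61.9 in Sham_Saline, 26.0, 41.9 and 48.2 in Sham_H2O2, 52.9, 64.3 and 63.3 in SNA_Saline, and 52.2, 62.7 and 50.6 in SNA_NAC. For Sgk1, whose upstream stretch with the inverted repeat is printed above, the 3 Sham_H2O2 samples lay below the other 15. The 6-group test gave adjusted p of 0.0985 for Tsc22d3 and 0.122 for Sgk1.

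Pdk4, Klf9 and Ddit4 link the hormone to metabolism and growth: Pdk4 encodes a kinase that inhibits pyruvate dehydrogenase, Klf9 a transcription factor that is also thyroid hormone responsive, and Ddit4 an inhibitor of mTORC1 signalling. Pdk4 was at 21.2, 22.5 and 17.7 CPM in LAM, 23.5, 23.1 and 17.6 in DCA, 15.0, 21.7 and 13.5 in Sham_Saline, 7.8, 12.1 and 12.6 in Sham_H2O2, 17.4, 16.2 and 20.4 in SNA_Saline, and 13.2, 14.1 and 13.1 in SNA_NAC. Its 3 Sham_H2O2 samples were the lowest of all 18, and its 3 SNA_NAC samples lay below all of LAM, DCA and SNA_Saline. Klf9 was at 67.3, 69.4 and 64.2 CPM in LAM, 60.1, 71.6 and 56.6 in DCA, 87.1, 58.7 and 45.6 in Sham_Saline, 46.7, 58.3 and 47.7 in Sham_H2O2, 63.2, 77.7 and 67.4 in SNA_Saline, and 77.5, 90.2 and 77.6 in SNA_NAC. The order of Klf9 thus differed from that of Pdk4, with the NAC group at the top. Ddit4 was at 61.0, 78.8 and 60.9 CPM in LAM, 75.2, 61.2 and 65.8 in DCA, 54.2, 67.6 and 80.6 in Sham_Saline, 38.9, 61.6 and 67.7 in Sham_H2O2, 53.2, 60.3 and 71.5 in SNA_Saline, and 64.6, 54.8 and 59.0 in SNA_NAC. All groups of Ddit4 overlapped, and its highest mean was 1.20-fold its lowest.

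Mt1 and Mt2 encode small metal-binding proteins and lie close together on chromosome 8 (chr8:94179082-94180327 and chr8:94172664-94173568, plus strand). Mt1 was at 21.9, 34.7 and 32.7 CPM in LAM, 41.2, 27.9 and 57.9 in DCA, 16.9, 74.9 and 29.9 in Sham_Saline, 11.0, 19.5 and 14.0 in Sham_H2O2, 21.4, 23.6 and 45.2 in SNA_Saline, and 24.7, 20.3 and 19.2 in SNA_NAC. Mt2 was at 21.8, 41.8 and 40.0 CPM in LAM, 48.1, 31.4 and 74.1 in DCA, 13.7, 85.6 and 29.2 in Sham_Saline, 8.1, 13.3 and 8.1 in Sham_H2O2, 14.9, 19.3 and 50.4 in SNA_Saline, and 23.4, 23.5 and 15.2 in SNA_NAC. In both genes Sham_Saline replicate 2 was the highest of the 18 samples, followed by DCA replicate 3 and SNA_Saline replicate 3. The group means of Mt2 spanned 5.20-fold and those of Mt1 2.86-fold, the widest ranges among the members along with the 3.51-fold of Zbtb16. On the per-length FPKM scale (fragments scaled by transcript length and depth) the ratio of Mt2 to Mt1 was 0.563 to 0.720 in Sham_H2O2 and 1.09 to 1.24 in DCA, with no overlap. It ran from 0.788 to 1.11 in Sham_Saline, 0.967 to 1.19 in LAM and 0.772 to 1.12 in SNA_NAC. In SNA_Saline it ran from 0.675 to 1.08, which overlaps Sham_H2O2. Mt3, another metallothionein, did not pass in any planned comparison.

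The GC slopes and red cell sums of the libraries are given beside the metallothioneins. Sham_Saline replicate 2 and DCA replicate 3, the samples highest in Mt1 and Mt2, had the steepest GC slopes (0.42 and 0.24). The summed red cell markers were at 777 and 840 CPM in Sham_Saline replicates 2 and 3, 723 in DCA replicate 3 and 708 in SNA_Saline replicate 3, and at 248 to 283 in Sham_H2O2 and 204 to 293 in SNA_NAC. Mt2 in Sham_Saline replicate 1, where the slope was -0.02 and the red cell sum 245, was 13.7 CPM, beside 13.3 in the highest Sham_H2O2 sample. Low values of the libraries also stood beside higher Mt2: LAM replicate 1, with the lowest red cell sum (164) and a slope of -0.19, had 21.8 CPM, and the 3 SNA_NAC samples had 15.2 to 23.5 CPM. High values stood beside lower Mt2 as well. Sham_Saline replicate 3, with the highest red cell sum (840) and a slope of 0.15, had 29.2 CPM. Sham_H2O2 replicate 2, with a slope of 0.14, had 13.3 CPM. The part of these library features in the metallothionein levels was not tested.

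**Figure D3:**
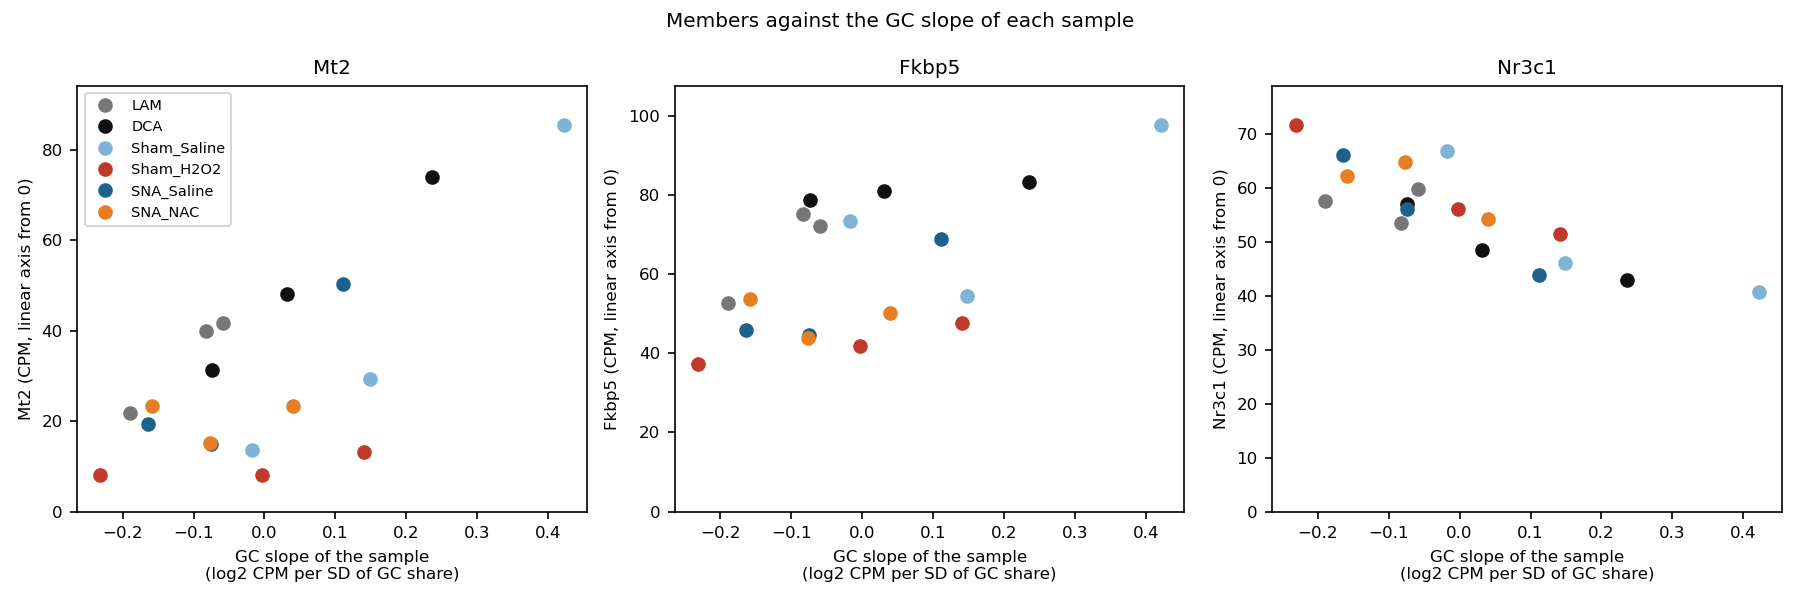
CPM of Mt2, Fkbp5 and Nr3c1 (linear axes from 0) against the GC slope of each of the 18 samples, coloured by group. Mt2 is highest in Sham_Saline replicate 2 (slope 0.42) and DCA replicate 3 (slope 0.24), and Nr3c1 is highest in Sham_H2O2 replicate 3 (slope -0.23).

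The planned comparisons asked how each surgery or agent changed these genes against its control. With hydrogen peroxide on the sham nerve, no member passed against Sham_Saline, and none of the 15730 genes did (0%). The fitted level was lower for 9 of 10 members, with a median log2 fold change of -0.59, while 52.5% of all genes were lower, with a median of -0.02. In 6 members it was lower with an unadjusted p under 0.05 (edgeR; 5.85% of all genes): Fkbp5 at a log2 fold change of -0.83 (SE 0.20), Mt2 at -2.08 (SE 0.58), Mt1 at -1.43 (SE 0.44), Zbtb16 at -1.77 (SE 0.56), Pdk4 at -0.63 (SE 0.20) and Sgk1 at -0.54 (SE 0.19). The adjusted p of each in edgeR's quasi-likelihood test was 0.449. DESeq2 (0.0254% of all genes called) and limma also called no member.

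Fkbp5, Sgk1, Pdk4 and Mt2 did not overlap between these groups, which was 4 of 10 members lower, against 3.27% of all genes. Within the 3 sequencing lanes, 7 members were lower in every lane, against 16.8% of all genes. Nr3c1, at 0.22 (SE 0.19), was the member on the other side. When 1 sample was left out the number lower stayed at 9, and the number with an unadjusted p under 0.05 was 4 without Sham_Saline replicate 2 (1.48% of all genes), 5 without Sham_H2O2 replicate 1 (2.66%) and 7 without any of the other 4 samples. For those 4 the share of all genes was 18% without Sham_Saline replicate 1, 7.88% without Sham_Saline replicate 3, 14.2% without Sham_H2O2 replicate 2 and 2.42% without Sham_H2O2 replicate 3. After correcting each library for GC content and length, 8 members were lower with an unadjusted p under 0.05 (5.83% of all genes), Fkbp5 at -0.78 and Mt2 at -1.71 among them, Ddit4 changed from -0.26 to 0.05, and no gene passed. The red cell sums beside these values were 245 to 840 CPM in Sham_Saline and 248 to 283 CPM in Sham_H2O2.

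**Figure D4:**
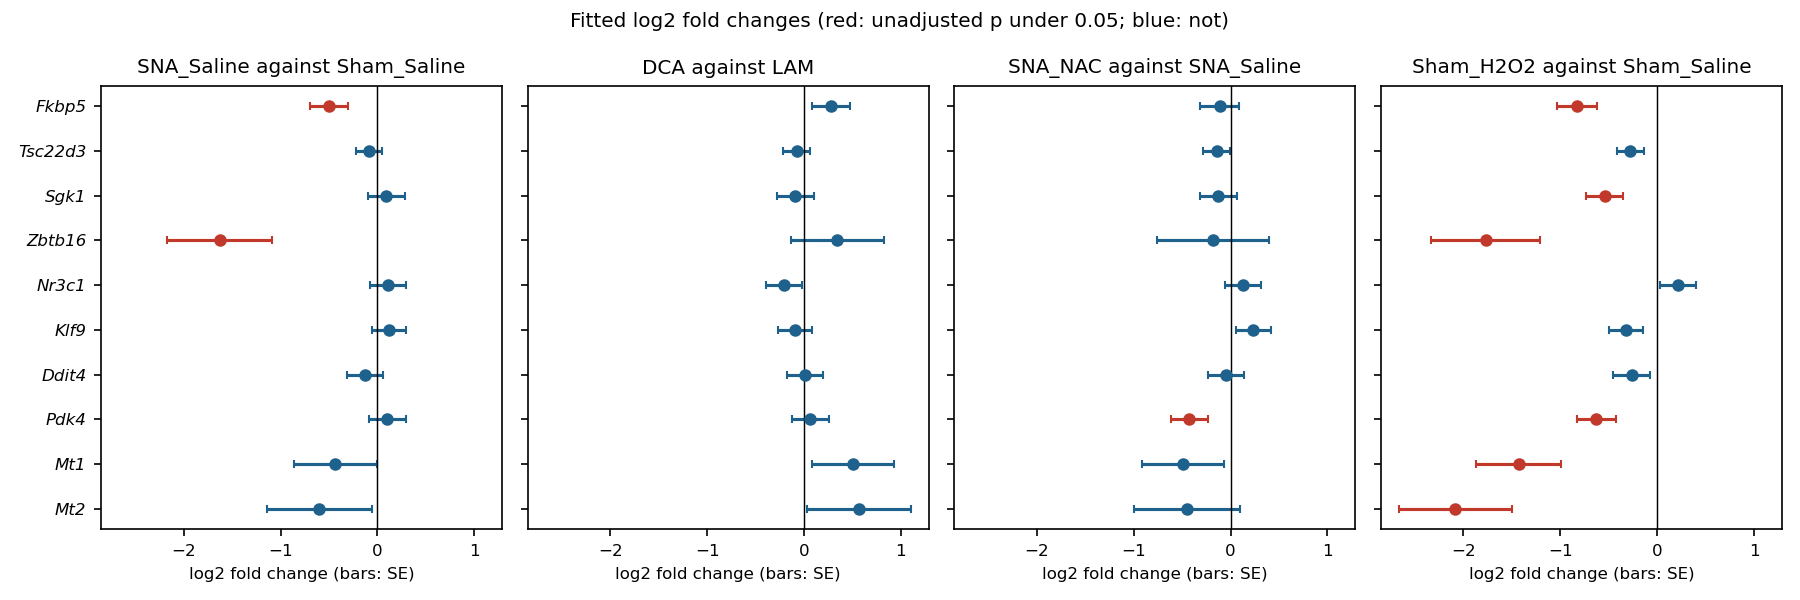
Fitted log2 fold change of each member with its SE in 4 planned comparisons; red marks an unadjusted p under 0.05 and blue the rest, and none passed after adjustment. The Sham_H2O2 panel holds 6 red members, all lower, and the DCA panel none.

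After sciatic nerve injury no member passed against Sham_Saline, where 2.73% of all genes did. Fkbp5 was at -0.50 (SE 0.20, adjusted p = 0.176) and Zbtb16 at -1.63 (SE 0.54, adjusted p = 0.118), both with an unadjusted p under 0.05, which was 2 of 10 members against 22.5% of all genes. The other 8 members lay between -0.60 (Mt2) and 0.12 (Klf9). DESeq2 called Zbtb16 (5.49% of all genes), and edgeR did so without Sham_Saline replicate 3, the sample in which Zbtb16 was low.

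After dorsal column injury no member passed against LAM, and none of all genes did (0%). The log2 fold changes ran from -0.20 (Nr3c1, SE 0.18) to 0.56 (Mt2, SE 0.54). None of the members had an unadjusted p under 0.05 (5.04% of all genes); DESeq2 (0.0127% of all genes) and limma called none. Fkbp5, at 0.28 (SE 0.20), was the 1 member whose DCA samples were all above the LAM samples, as for 11.9% of all genes. The difference between the sciatic and the dorsal column responses was tested directly: Fkbp5, at -0.78 (SE 0.28, adjusted p = 0.0974), and Zbtb16, at -1.97 (SE 0.72, adjusted p = 0.0982), did not pass (1.61% of all genes passed). These were the 2 members with an unadjusted p under 0.05, against 31.4% of all genes, and DESeq2 called none (11.1% of all genes). Without Sham_Saline replicate 3, Zbtb16 passed.

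N-acetyl-cysteine after sciatic injury gave no call among the members or in the whole table (0%), in edgeR, DESeq2 or limma. Pdk4 was lower at -0.42 (SE 0.19, adjusted p = 1.00), the 1 member with an unadjusted p under 0.05 (2% of all genes), and its groups did not overlap, as for 5.63% of genes. The other members lay between -0.49 (Mt1, SE 0.43) and 0.24 (Klf9, SE 0.18). Against Sham_Saline, SNA_NAC gave -0.61 for Fkbp5 (SE 0.20, adjusted p = 0.0949), -1.81 for Zbtb16 (SE 0.51, adjusted p = 0.0639) and -0.92 for Mt1 (SE 0.42, adjusted p = 0.173). None passed (3.32% of all genes), and these 3 of 10 had an unadjusted p under 0.05 (27.6% of all genes); DESeq2 called Fkbp5 and Zbtb16 (8.42% of all genes). Without Sham_Saline replicate 1 edgeR called 6 members here (Fkbp5, Tsc22d3, Nr3c1, Klf9, Mt1 and Mt2), as the count over all genes went from 522 to 5861, and without Sham_Saline replicate 3 it called Fkbp5 and Zbtb16. The comparisons against Sham_Saline share its 3 samples, and their values are not independent.

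Between the surgical controls, Sham_Saline and LAM, no member passed (0.0699% of all genes) or had an unadjusted p under 0.05 (30.3% of all genes), and DESeq2 called none (7.62% of all genes). Tsc22d3 was at -0.26 (SE 0.14) and Sgk1 at -0.31 (SE 0.19) in Sham_Saline, and Mt1 at 0.44 (SE 0.42).

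The 9 other pairs of groups were compared after the data had been seen. SNA_NAC against DCA gave the only call of a member between 2 groups in the edgeR fit: Fkbp5 fell by 0.72 on the log2 scale (SE 0.20, adjusted p = 0.0499), from 81.0 to 49.3 CPM, where 4.53% of all genes passed. The call was lost with the lane as a block (adjusted p = 0.0634), under limma (0.0584), with at least 10 counts in every sample (0.0508) and when any of the 6 samples was left out (up to 0.204), while DESeq2 gave 0.0126 and called 3 members in this pair (7.22% of all genes). Zbtb16 (-1.81, adjusted p = 0.0550) and Pdk4 (-0.67, adjusted p = 0.0557) missed the threshold. In this pair 6 members were lower with an unadjusted p under 0.05 (7.96% of all genes) and 6 were lower with no overlap (12.3%), while Klf9 was higher at 0.38 (SE 0.18).

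Sham_H2O2 was also low against the spinal surgery groups. Against LAM, 8 members were lower with an unadjusted p under 0.05 (1.92% of all genes) and the same number did not overlap (5.07%), but none passed (0.146%); Sgk1 at -0.85 (SE 0.19) and Pdk4 at -0.91 (SE 0.20) had the lowest adjusted p, 0.127. Against DCA, 7 were lower with an unadjusted p under 0.05 (1.65%) and 7 did not overlap (3.29%), and again none passed (0.172%), with Pdk4 at -0.98 (SE 0.20, adjusted p = 0.0656) and Fkbp5 at -0.93 (SE 0.20, adjusted p = 0.0953). After correcting each library for GC content and length, edgeR called 3 members against DCA, Fkbp5 (adjusted p = 0.0251), Sgk1 (0.0460) and Mt2 (0.0317), where 0.626% of all genes passed, and none against LAM. DESeq2 called Sgk1 and Pdk4 against LAM (0.375% of all genes), and Fkbp5, Sgk1, Pdk4 and Mt2 against DCA (0.496%).

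In the remaining pairs no member passed in edgeR. The shares of all genes that passed were 2.45% for SNA_Saline against LAM, 3.61% for SNA_NAC against LAM, 0.089% for Sham_Saline against DCA, 2.96% for SNA_Saline against DCA, 0.954% for SNA_Saline against Sham_H2O2 and 1.13% for SNA_NAC against Sham_H2O2. The members with an unadjusted p under 0.05 numbered 2 (10.9% of all genes), 4 (15.8%), 0 (4.09%), 2 (13%), 5 (7.29%) and 2 (9.25%) in that order. Tsc22d3 came closest, at -0.49 (SE 0.14, adjusted p = 0.0602) in SNA_NAC against LAM. Klf9 was at 0.68 (SE 0.18, adjusted p = 0.0960) in SNA_NAC against Sham_H2O2, and Pdk4 at 0.73 (SE 0.20, adjusted p = 0.141) in SNA_Saline against Sham_H2O2. DESeq2 called 0 (3.63% of all genes), 2 (5.3%), 0 (0.22%), 1 (4.42%), 0 (1.54%) and 1 (1.82%) members in that order. EdgeR corrected for GC content and length called 0 (7.37%), 2 (10.5%), 0 (0.198%), 1 (9.11%), 0 (3.2%) and 1 (4.15%).

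Among other glucocorticoid targets, listed with earlier results of these data known, 23 of 24 were measured. In Sham_H2O2 against Sham_Saline 20 of the 23 were lower, with a median log2 fold change of -0.19 against -0.02 for all genes; 8 had an unadjusted p under 0.05, all lower (5.85% of all genes), and none passed. The largest of these were Hif3a, a hypoxia-inducible factor subunit (-2.43, SE 0.54), Plin4, a lipid droplet protein (-1.24, SE 0.46), and the clock gene Per1 (-1.22, SE 0.30), which was at 8.99 ± 4.15 CPM in Sham_H2O2 and 21.9 ± 9.05 in Sham_Saline (SD, n = 3). Hif3a and Plin4 were scarce in Sham_H2O2, at 0.41 to 0.91 and 0.95 to 2.26 CPM, so their fold changes are imprecise. Sham_H2O2 had the lowest mean for 12 of the 23, against 7.73% of all genes. In the 6-group test 8 of the 23 passed (3.94% of all genes), namely Dusp1, Plin4, Cdkn1a, Nfil3, Fam107a, Hif3a, Glul and Mertk.

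These 8 did not share 1 order of groups. Fam107a, an actin-binding protein gene, had its lowest mean in Sham_H2O2 and its highest in DCA: its CPM was 69.3 ± 3.24 in LAM, 77.0 ± 3.05 in DCA, 50.8 ± 3.58 in Sham_Saline, 30.3 ± 5.18 in Sham_H2O2, 51.1 ± 9.91 in SNA_Saline and 45.9 ± 10.03 in SNA_NAC (SD, n = 3). In edgeR it fell in Sham_H2O2 against LAM (log2 fold change -1.20, adjusted p = 0.00219, 0.146% of all genes called). It also fell against DCA (-1.35, adjusted p = 0.000602), as did Hif3a (-3.05, adjusted p = 0.0227), where 0.172% of all genes were called. The fold change of Hif3a is imprecise, since Hif3a was at 0.41 to 0.91 CPM in Sham_H2O2. After sciatic injury with saline 3 of the 23 passed in edgeR (2.73% of all genes), all higher. They were Nfil3, a transcription factor (1.05, adjusted p = 0.00155), Dusp1, a MAP kinase phosphatase (0.71, adjusted p = 0.0019), and Cdkn1a, the cell cycle inhibitor p21 (0.63, adjusted p = 0.00831). The same 3 rose in SNA_NAC against Sham_Saline (3.32% of all genes called), where Lcn2, an iron-carrier protein, fell (-1.13, edgeR adjusted p = 0.0456). In edgeR's test of the sciatic against the dorsal column response, Dusp1 (0.71) and Plin4 (-2.68) passed, each with an adjusted p of 0.0386 (1.61% of all genes passed). Other added pairs gave calls too. In SNA_Saline against DCA 7 of the 23 passed, 4 higher and 3 lower (2.96% of all genes). It was 5 in SNA_Saline against Sham_H2O2, all higher (0.954%), and 4 in SNA_NAC against DCA, 2 higher and 2 lower (4.53%). It was 3 each in SNA_Saline against LAM (2.45%), SNA_NAC against LAM (3.61%) and SNA_NAC against Sham_H2O2 (1.13%).

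**Figure D5:**
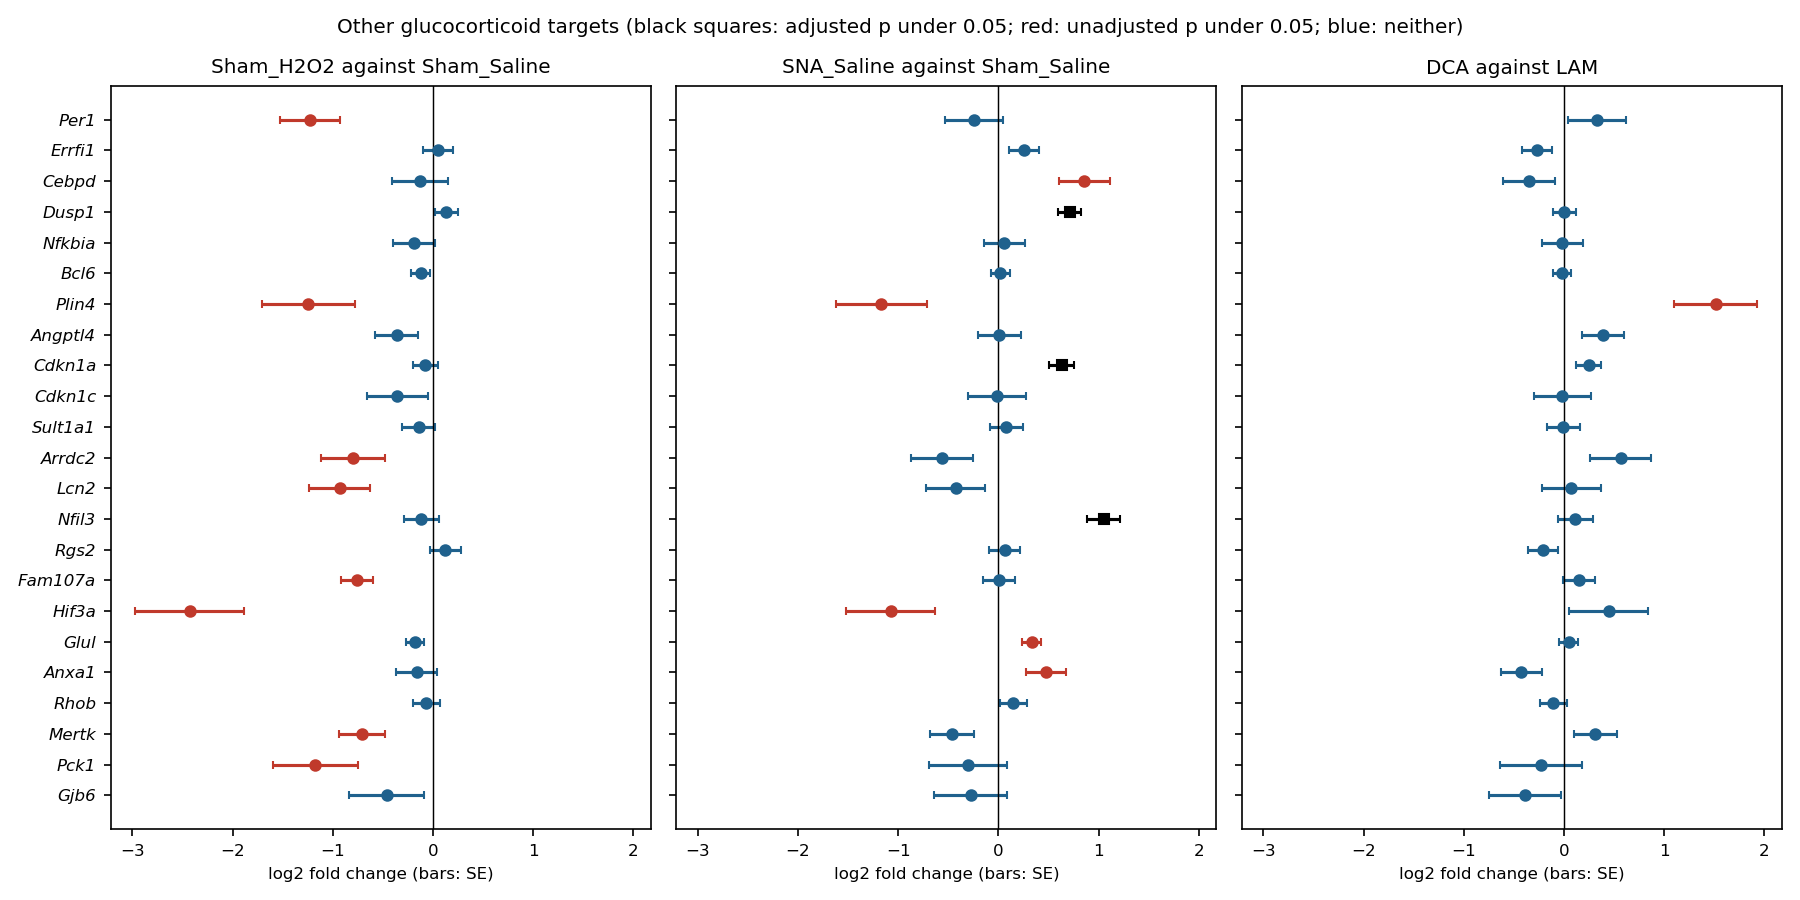
Fitted log2 fold change with its SE for the 23 other glucocorticoid targets measured, in 3 planned comparisons; black squares passed after adjustment, red points had an unadjusted p under 0.05 and blue points neither. In Sham_H2O2 20 of 23 lie left of 0, and after sciatic injury the 3 black squares (Dusp1, Cdkn1a and Nfil3) lie right of 0.

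A metal and oxidant response list and a clock list were also looked at, and Per1 is in both the clock list and the list of other targets. What they say about Mt1, Mt2 or the time of day was not tested. Of 10 metal and oxidant genes, Srxn1, which encodes sulfiredoxin, and Txnrd1, a thioredoxin reductase, rose after sciatic injury with saline (0.94 and 0.47, edgeR adjusted p = 9.71e-06 and 0.0128, 2.73% of all genes called). The same 2 rose in SNA_NAC against Sham_Saline (3.32% of all genes called), a comparison in which the nerve injury differs too. In SNA_NAC against SNA_Saline none of the 10 passed in edgeR or had an unadjusted p under 0.05, and none of all genes passed. None passed in Sham_H2O2 against Sham_Saline in edgeR, where none of all genes did, so this says nothing about the list. There 1 was higher and 1 lower with an unadjusted p under 0.05 (1440 of all 15730 genes in either direction). Of 14 clock genes, Bhlhe41 rose after sciatic injury (1.02, edgeR adjusted p = 0.000122). None of the list passed in Sham_H2O2 against Sham_Saline or in DCA against LAM, and none of all genes did in these comparisons. With an unadjusted p under 0.05, 2 were lower in Sham_H2O2 (5.85% of all genes) and 1 was lower in DCA (5.04% of all genes in either direction).

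By the root mean square difference of centred log2 CPM over the 18 samples, among 12990 genes, those nearest to Fkbp5 were Cyp2u1 (0.19), Angpt2 (0.20) and Nupr1 (0.23). Nearest to Pdk4 were Sgk1 (0.21), Notch4 (0.23) and 1810011O10Rik (0.24). Mt1 was the gene nearest to Mt2 (0.33), a pair named after its values were seen. These distances describe likeness of level across the same libraries and carry no test.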

How the data were processed

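RNA of 18 pooled ganglion samples had been sequenced by the authors from stranded mRNA libraries on 3 lanes, 6 libraries a lane, per the labels' protocols. Per the submitters' processing notes the tools included TopHat2 2.0.12, Bowtie2 2.2.3, SAMtools 0.1.19, HTSeq 0.6.0 and edgeR 3.8.6, with the mm10 build; whether strand was used in counting is not given in the sources used here. The authors deposited a table of counts per gene and a table of FPKM, which for the members held the same reads divided by length and depth. All columns were mapped to samples (0 unmapped).

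Counts were tested with edgeR 4.0.16 (R 4.3.3), TMM and filterByExpr in one quasi-likelihood fit over all samples, with Benjamini-Hochberg adjustment over 15730 genes and a threshold of 0.05. The SE is the fold change divided by the root of F. Alternatives used DESeq2 1.42.0, limma 3.58.1 on log2(FPKM + 1) and log2(FPKM + 0.1), RLE scaling, no filter, at least 10 counts in every sample, the lane as a replicate block, a looser threshold, offsets for GC share and length (natural splines, 5 degrees of freedom) and leaving out samples. The lane, given by the labels, is the same as the replicate number; deviations of same-numbered samples correlated by -0.031 on average (range -0.65 to 0.56), and 3 of 18 samples correlated best with their own number. The chi-square per degree of freedom between replicates was at least 3.96, so no library was counted as a repeat.

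All members were named, and 3 nearest genes for members that passed in the 6-group test. Of each list the genes named were those that passed in the planned comparisons or in Sham_H2O2 against LAM or DCA (up to 8). Members and lists were chosen with earlier results of these data known. Sequences are RefSeq's; figures were drawn with matplotlib 3.10.9.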

Additional observations from a re-analysis of the deposited data

How the results depend on the processing

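Results on single members were followed in the planned comparisons and in SNA_NAC against DCA, and not in the other added pairs. Those with an unadjusted p under 0.05 there gave 29 results, 8 of them from the 6-group test, which has no direction. Of their 558 alternative values, 481 kept their side of the threshold, 40 newly passed it and 37 lost their call, and of the 21 results with a direction 0 changed it. Over all members in the planned comparisons the sign did turn: under the offsets for GC share and length in 17 of 70 values (17 with the block added), with 1 sample left out in 44 of 480 and with the replicate block in 1 of 70, none of these with an unadjusted p under 0.05 as reported. Under the offsets Ddit4 went from -0.13 to 0.19, Pdk4 from 0.10 to -0.11 and Nr3c1 from 0.11 to -0.11 in SNA_Saline against Sham_Saline, and Mt2 from 0.31 to -0.18 in Sham_Saline against LAM. In the 6-group test, 2 members passed as reported (3.94% of all genes) and 5 with DESeq2 (8.8%). It was 4 at an adjusted p under 0.10, 1 with the lane as a replicate block and 1 with limma at either pseudocount. With offsets for GC share and length 6 passed (6 with the block added). When 1 sample was left out it was 0 to 7, the 7 without Sham_Saline replicate 1. The share of all genes called also moved with the setting, so these counts alone do not set the members apart. The same holds for the counts below that stand without a share of all genes. For SNA_Saline against Sham_Saline, 0 passed as reported (2.73% of all genes), 1 with DESeq2 (5.49%) and 0 to 1 with 1 sample left out. For SNA_NAC against Sham_Saline, 0 passed as reported (3.32% of all genes) and 2 with DESeq2 (8.42%). At an adjusted p under 0.10 it was 2 (1288 of all genes), with offsets 1 and with 1 sample left out 0 to 6. For the sciatic against the dorsal column response, 0 passed as reported (1.61% of all genes). It was 2 at an adjusted p under 0.10 (2398 of all genes) and 0 to 1 with 1 sample left out. For SNA_NAC against DCA, a pair added after the data were seen, 1 passed as reported (4.53% of all genes) and 3 with DESeq2 (7.22%). It was 3 at an adjusted p under 0.10 (1191 of all genes), 5 with the 2 groups alone, 4 with offsets and 4 with the block and offsets. None passed with the replicate block, with at least 10 counts in every sample, with limma at either pseudocount or with any 1 sample left out. The block moved the number of members called in no other comparison. The cause of these changes was not tested. Zbtb16 has no value under the filter of 10 counts in every sample, which removes it.

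With 3 pools a group, and 6472476 counts in the shallowest library, differences of the size seen in Zbtb16 (7 to 159 reads) are imprecise, and 3 against 3 samples cannot give an exact permutation p below 0.1. The number of members lowest in Sham_H2O2 was 7 to 9 when 1 of the 18 samples was left out, with 7 without Sham_H2O2 replicate 1 or SNA_NAC replicate 2. Sham_Saline, the shared control, had the widest spread in Fkbp5, Zbtb16, Mt1 and Mt2.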
